A study of Mus musculus with 9 samples.

Results

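Cytosolic ribosomal proteins, the protein parts of the ribosomes that translate messenger RNA in the cytoplasm, were followed in mouse liver macrophages after PHx (partial hepatectomy), an operation that removes part of this organ. Members were the genes whose symbol is Rpl or Rps followed by a number, with an optional last letter or L, together with Rplp0, Rplp1, Rplp2 and Rpsa. Processed pseudogenes (symbols ending in -ps) and the Rps6k kinases were left out. The rule gave 84 genes of 56691 in the deposited table, 52 of the large 60S subunit and 32 of the small 40S subunit. GENCODE M21 annotates 81 of them as protein coding and 3 (Rps4l, Rpl32l and Rpl6l) as pseudogenes. F4/80+CD11b+ cells had been sorted from livers of male C57BL/6 mice 0, 24 or 48 h following the operation, with no inhibitor or genetic change named for these samples, and 3 libraries were sequenced per time. The 0 h libraries are the reference, and the sources used here do not say whether a liver at 0 h had undergone a sham operation. Whether each library is from a different mouse is not stated, and p-values therefore reflect library-to-library spread alone, possibly of technical origin.

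Each ribosome needs 1 copy of nearly every one of these proteins beside its ribosomal RNA, and cells therefore make them in matched amounts. Most of their messenger RNAs begin with a stretch of pyrimidines (C and T), the 5' terminal oligopyrimidine tract, through which mTORC1 signalling and the protein Larp1 set their translation and stability. Macrophages that grow or divide need more ribosomes, as other cells do.

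To show this shared feature, windows of 20 bases centred on the start site were taken from RefSeq promoters (mouse, GRCm38.p6) for the members with the largest changes and for 2 proteins of the ribosomal stalk. They are written 5' to 3' on the strand of the gene, with every pyrimidine run of at least 5 bases that reaches within 5 bases of the annotated start in capitals.
Rpl35, chr2:39005122-39005141, minus strand: ccgCCCTTTCCTCTTTCTCT
Rpl36al, chr12:69184058-69184077, minus strand: ccgtcgctcaggttcagttc
Rps27l, chr9:66946076-66946095, plus strand: CCTCCCCgccgCCTCTatcc
Rps9, chr7:3704031-3704050, plus strand: cttgTCTCTCTTTgtctcgg
Rpl38, chr11:114668570-114668589, plus strand: aagcctcgTTCTTTCCCCgt
Rplp0, chr5:115559457-115559476, plus strand: cgggtttcgaggaccgcctg
Rplp2, chr7:141447641-141447660, plus strand: cagcgTCTTCCTTTCgccgc
The last 10 bases of each window lie at the 5' end of the transcript by this annotation, and the first 10 lie upstream of it. The run of Rpl35 is 18 bases long and those of Rpl38 and Rplp2 are 10 bases each, whereas Rpl36al and Rplp0 show no such run at their annotated start. Of the 84 members, 62 matched the promoter table, and for genes with several starts the first listed was used. A pyrimidine run of 5 or more bases whose first base lay within 5 bases of the start was found in 25 of the 62 members (40.32%), against 22.22% of the 27025 genes of the table. Counting also runs that begin earlier and reach this interval, a reading chosen after the values were seen, gave 34 of 62 members (54.84%), against 32.92% of all genes. A match describes letters in this window only.

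The counts of a library summed to between 53297943 and 67951168. Levels are given as CPM, counts scaled to a common library total after scaling by TMM (trimmed mean of M values), and are not corrected for gene length, so they compare libraries and not genes. Of the 84 members, 83 passed the filter on low counts, as did 20204 genes in all, and Rpl10l, a paralog known from testis, had 0 counts in all libraries. Genes were called changed where the quasi-likelihood test of edgeR, adjusted over all 20204 genes, gave an adjusted p below 0.05. Log2 fold changes are given with an SE, which was derived from the fold change and the statistic of that test. The 48 h libraries stood apart from the others. Their libraries held counts for 20549 to 22986 genes, compared with 24179 to 26767 genes in 0 h libraries and 23240 to 23452 genes in 24 h libraries. Fitted to each time on its own, the biological coefficient of variation came to 0.820 for the 48 h libraries, with 0.417 for 0 h and 0.437 for 24 h. The share of mitochondrially encoded genes was 7.06% to 17.9% in the 48 h libraries, compared with 3.01% to 4.53% in 0 h libraries and 2.37% to 3.72% in 24 h libraries.

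Ribosomal protein genes kept near their 0 h level at 24 h after PHx and were lower at 48 h. At 24 h against 0 h, 0 of 83 members were called higher or lower, the median log2 fold change was -0.03, and over all genes tested it was -0.03. At 48 h against 0 h, 52 of 83 members fell and 0 rose, with a median log2 fold change of -0.76, against -0.04 over all genes tested. Over all 20204 genes, 8.95% were called lower and 9.86% higher in that comparison. On the scale of the median member, the 48 h level was 0.591 times the 0 h level. Of the 83 members, 80 had a lower mean at 48 h, and in 70 the highest 48 h library was below the lowest 0 h library, which held for 19.7% of all genes tested.

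**Figure D1:**
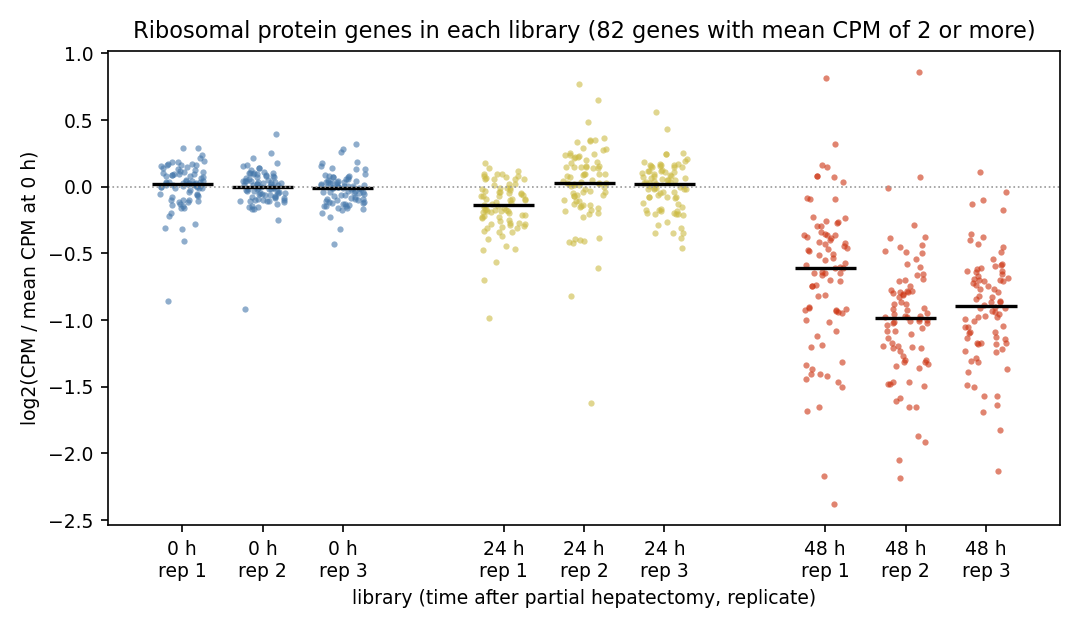
Level of each ribosomal protein gene in each of the 9 libraries, as log2 of its CPM over its mean CPM at 0 h. Points are the 82 genes with a mean of at least 2 CPM and black bars their medians. The 0 h and 24 h libraries centre near 0, and the 48 h libraries lie lower, replicate 1 less so than replicates 2 and 3.

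The fall differed in depth among the 48 h libraries. The median of the tested members over their 0 h mean, on the log2 scale, was -0.60 in replicate 1, -0.98 in replicate 2 and -0.90 in replicate 3 at 48 h. At 24 h it was -0.15, 0.03 and 0.03. Of 83 members, 74, 80 and 82 lay below their 0 h mean in the 48 h libraries, against 66, 34 and 38 in the 24 h libraries. Replicate 1 was the highest of the 48 h libraries for 51 members and the lowest for 20. For 24 members its level was at least 1.5 times the mean of replicates 2 and 3, with the largest ratio at Rpl38 (3.04), and 10 of these 24 were among the members that fell against 0 h. Without 48 h replicate 1, edgeR called 63 members lower than at 0 h.

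As a share of all counts, the members took 2.55%, 2.49% and 2.64% of the 0 h libraries, 2.18%, 2.63% and 2.40% of the 24 h libraries and 2.21%, 1.40% and 1.74% of the 48 h libraries. These shares use the library total without TMM, and on this scale 48 h replicate 1 lay within the range of the 24 h libraries. The 20 most-counted other genes, among them globins, mitochondrially encoded genes and Lyz2, were also left out of the total. Lyz2 itself had 61916 to 79003 CPM at 0 h and 9566 to 22332 CPM at 48 h. The members then took 2.95%, 2.13% and 2.49% at 48 h, compared with 3.02% to 3.43% in 24 h libraries and 3.57% to 3.78% in 0 h libraries. Every 48 h library was then below every earlier one. With only mitochondrially encoded genes left out, the members took 2.38%, 1.70% and 2.02% at 48 h. Replicate 1 then still lay within the range of the 24 h libraries (2.24% to 2.71%). The summed level of the members after TMM was 16817, 13317 and 14103 CPM at 48 h, against 26923 to 28579 CPM at 0 h and 25479 to 27257 CPM at 24 h.

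The scaling of the libraries set how many members passed the threshold. With library totals in place of TMM, 18 members were called lower and 1 higher at 48 h against 0 h, and the median was -0.36 for the members and 0.33 for all genes tested. With these totals 3195 of all genes were called higher and 919 lower, against 1992 higher and 1809 lower with TMM and 1674 higher and 2360 lower with upper-quartile factors. Relative to the median of all genes, the median member stood at -0.72 with TMM, -0.71 with upper-quartile factors and -0.69 with library totals. A change of scaling factors shifts all genes by nearly the same amount, so these values could hardly differ. Over the alternatives, the difference ran from -0.51 with no filter on low counts to -0.82 without 48 h replicate 1. It was -0.58 with limma-voom. Leaving out 0 h replicate 1 or 2 lowered the number of members called to 28 and 29, and leaving out 48 h replicate 2 or 3 lowered it to 33 and 30. A core of 18 members was called lower in the main test and under each of the 23 alternatives, among them Rpl10, Rpl19, Rpl23a, Rpl24, Rpl35, Rpl36al, Rps9, Rps13, Rps19, Rps26, Rps27a and Rps27l.

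Members of both subunits fell. Of the 60S members tested, 30 of 51 fell at 48 h against 0 h with a median of -0.76, and of the 40S members 22 of 32 fell with a median of -0.77. The ratio of summed 40S to summed 60S counts, which does not depend on the scaling of a library, was 0.646, 0.668 and 0.652 at 0 h, 0.660, 0.676 and 0.663 at 24 h and 0.632, 0.649 and 0.657 at 48 h. The ranges of the 0 h and 48 h libraries overlapped, whereas every 48 h ratio lay below every 24 h ratio. These differences were not tested.

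**Figure D2:**
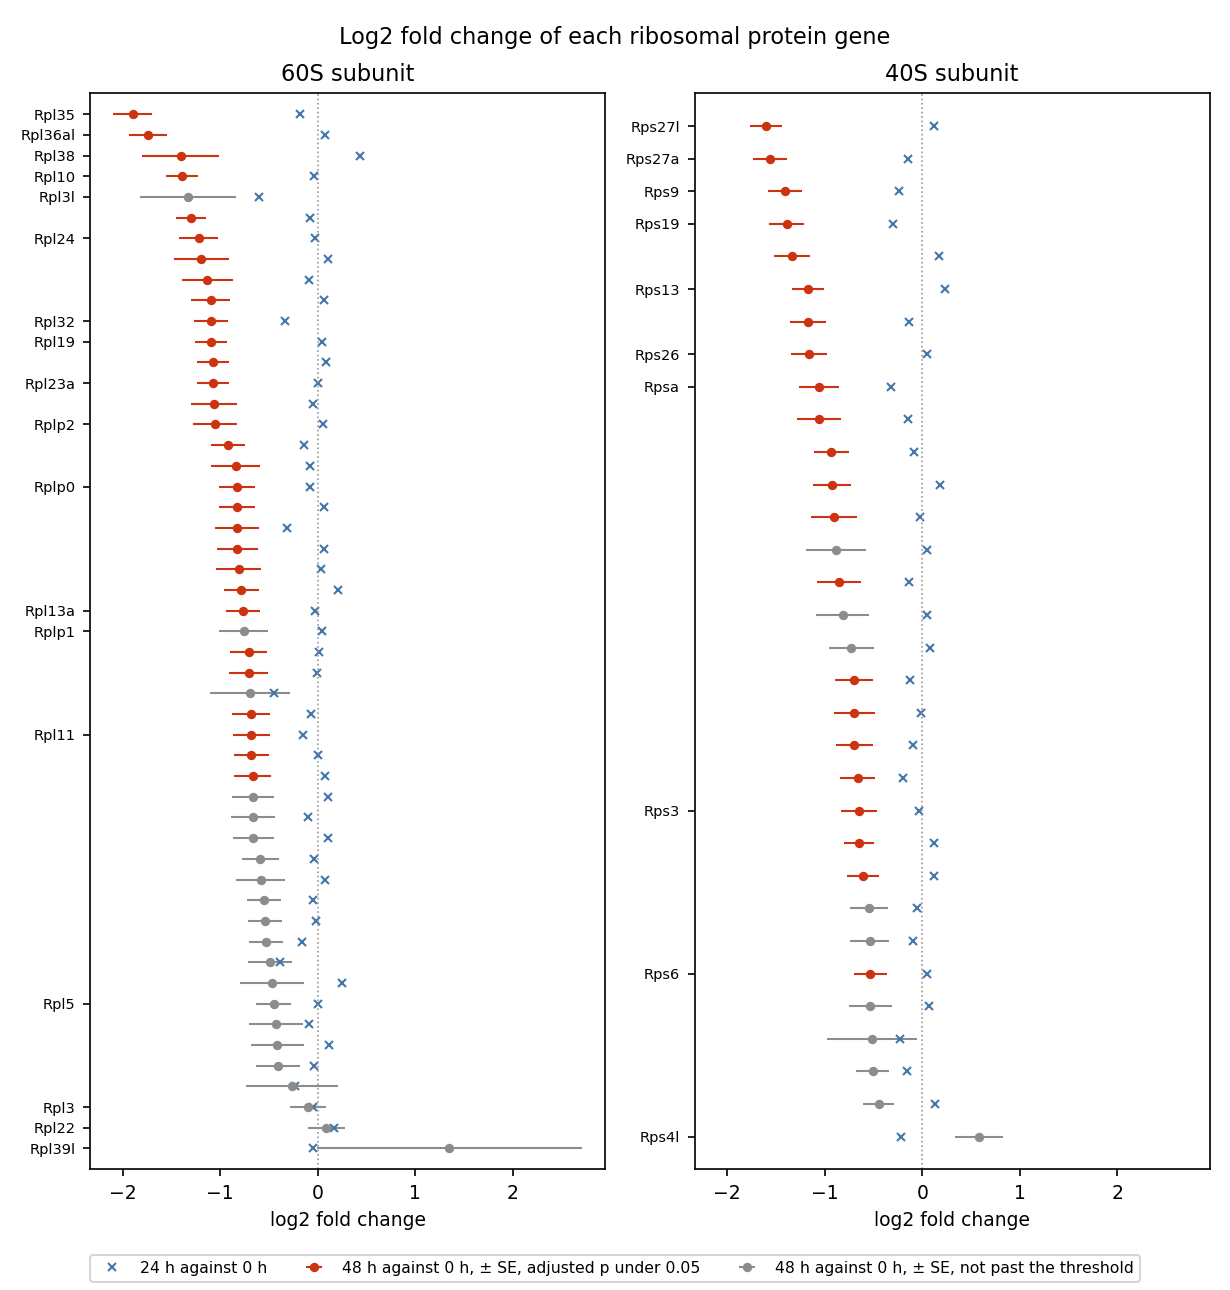
Log2 fold change of each of the 83 tested members, 60S on the left and 40S on the right, ordered by the change at 48 h against 0 h (circles with SE, red where the adjusted p is under 0.05). Crosses give 24 h against 0 h, which lie around 0, while 80 of the 83 circles lie left of 0 (28 of the genes are labelled).

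Markers of other cells also differed in the 48 h libraries, and endothelial markers differed at 24 h as well. The 15 endothelial markers summed to 5957 to 7194 CPM at 48 h, against 445 to 585 CPM at 0 h and 648 to 943 CPM at 24 h. All 15 were called higher at 48 h against 0 h. In 14 of the 15 all 24 h libraries were above all 0 h libraries, as in 1692 of all 20204 genes tested. Their median log2 fold change at 24 h against 0 h was 1.07, and 1 was called higher. The 8 erythroid markers, globins among them, summed to 42083 to 169414 CPM at 48 h, against 7979 to 17888 CPM at 0 h and 8383 to 53405 CPM at 24 h, and 6 of 8 were called higher than at 0 h. B cell markers rose too (13 of 15 called higher, 762 to 1566 CPM at 48 h, against 59.0 to 145 CPM at 0 h), as did 8 of 14 T cell markers, 6 of 9 tested NK cell markers and 5 of 10 dendritic cell markers. Neutrophil markers summed to 1700 to 2953 CPM at 48 h, against 5136 to 12798 CPM at 0 h, with 3 of 14 called higher and 2 lower. Platelet markers summed to 65.4 to 141 CPM at 48 h, against 193 to 660 CPM at 0 h, with 2 of 8 called lower and 0 higher. This lower sum does not stand for the whole platelet list, whose median log2 fold change was 0.19. At 48 h, 3 of the 8 lay above every 0 h library and 2 below. Hepatocyte and stellate cell markers overlapped between these times in their sums. The 17 macrophage and monocyte markers summed to 11208 to 28443 CPM at 48 h, against 66289 to 84379 CPM at 0 h and 39712 to 86198 CPM at 24 h, with 7 called lower and 5 higher than at 0 h. Lyz2 alone makes most of that sum, and the other 16 markers summed to 6111, 1642 and 2543 CPM at 48 h, against 5376, 4745 and 4373 CPM at 0 h, so that 48 h replicate 1 then lay above the 0 h libraries and replicates 2 and 3 below them. Of the genes for the sorted antigens, Adgre1 (F4/80) averaged 130 ± 81.3 CPM at 48 h and 143 ± 24.9 CPM at 0 h and overlapped, and Itgam (CD11b) averaged 16.8 ± 5.26 CPM at 48 h and 51.6 ± 19.7 CPM at 0 h and fell (-1.62 ± 0.32, edgeR, adjusted p = 0.00613). None of these markers was at 0 throughout a time except Klra8 of the NK cell list at 0 h. The part of these cells in the change of the ribosomal protein genes was not tested, and in such bulk libraries fewer cells of a type and less RNA per cell cannot be told apart.

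**Figure D3:**
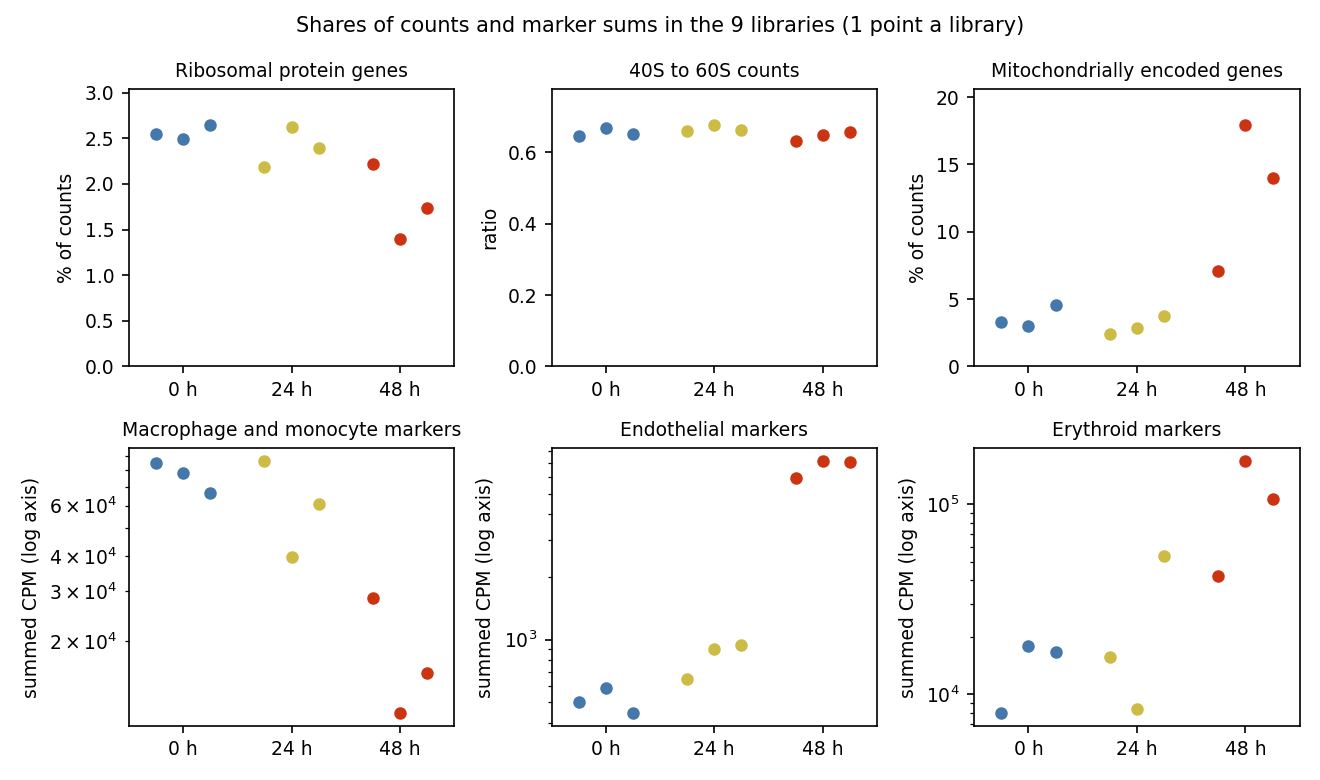
Share of counts taken by the ribosomal protein genes, ratio of 40S to 60S counts, share of mitochondrially encoded genes and summed CPM of 3 marker lists (log axes) in the 9 libraries, 1 point each. At 48 h the ribosomal protein share is lowest in replicate 2 (1.40%), the library with the largest mitochondrial share (17.9%), and the 40S to 60S ratio stays between 0.632 and 0.676 throughout.

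The largest falls at 48 h were those of Rpl35, Rpl36al, Rps27l, Rps27a, Rps9 and Rpl38. Rpl35, a 60S protein at the mouth of the exit tunnel for new peptide chains, had 1595, 1354 and 1329 CPM at 0 h, 1196, 1323 and 1247 CPM at 24 h and 317, 390 and 441 CPM at 48 h. Its log2 fold change at 48 h against 0 h was -1.90 ± 0.20 (edgeR, adjusted p = 0.00011), and the highest 48 h library was far below the lowest earlier one. Rpl36al, a 60S protein encoded by a gene very similar to Rpl36a, had 555, 541 and 550 CPM at 0 h, 575, 585 and 568 CPM at 24 h and 206, 132 and 155 CPM at 48 h (-1.74 ± 0.20 at 48 h against 0 h, edgeR, adjusted p = 0.000176). Rps27l, a paralog of Rps27 that p53 induces, had 399, 381 and 354 CPM at 0 h, 372, 440 and 420 CPM at 24 h and 118, 120 and 135 CPM at 48 h (-1.60 ± 0.17 against 0 h, edgeR, adjusted p = 0.000109). In each of these genes the 48 h libraries did not overlap the earlier times. Since Rpl36al and Rps27l each have a close paralog, reads may have been shared with it, which was not tested.

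Rps27a, whose messenger RNA encodes a 40S protein fused to ubiquitin, had 468, 458 and 411 CPM at 0 h, 363, 381 and 463 CPM at 24 h and 164, 147 and 143 CPM at 48 h (-1.56 ± 0.18 against 0 h, edgeR, adjusted p = 0.000172). Rps9, a 40S protein that binds early during assembly, had 722, 769 and 740 CPM at 0 h, 617, 670 and 610 CPM at 24 h and 281, 309 and 250 CPM at 48 h (-1.41 ± 0.17, edgeR, adjusted p = 0.000269). Both genes kept their call under every alternative tried. Rpl38, which in mouse embryos is needed for the translation of a subset of Hox messenger RNAs, had 248, 261 and 203 CPM at 0 h, 268, 373 and 320 CPM at 24 h and 162, 52.3 and 54.3 CPM at 48 h. Its fall at 48 h against 0 h (-1.41 ± 0.40, edgeR, adjusted p = 0.0314) rested on unequal libraries, with 48 h replicate 1 at 3.04 times the mean of replicates 2 and 3, and the call was lost in 10 of 23 alternatives. Rpl38 pseudogenes also held 21.8% of the counts of gene and pseudogenes together.

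**Figure D4:**
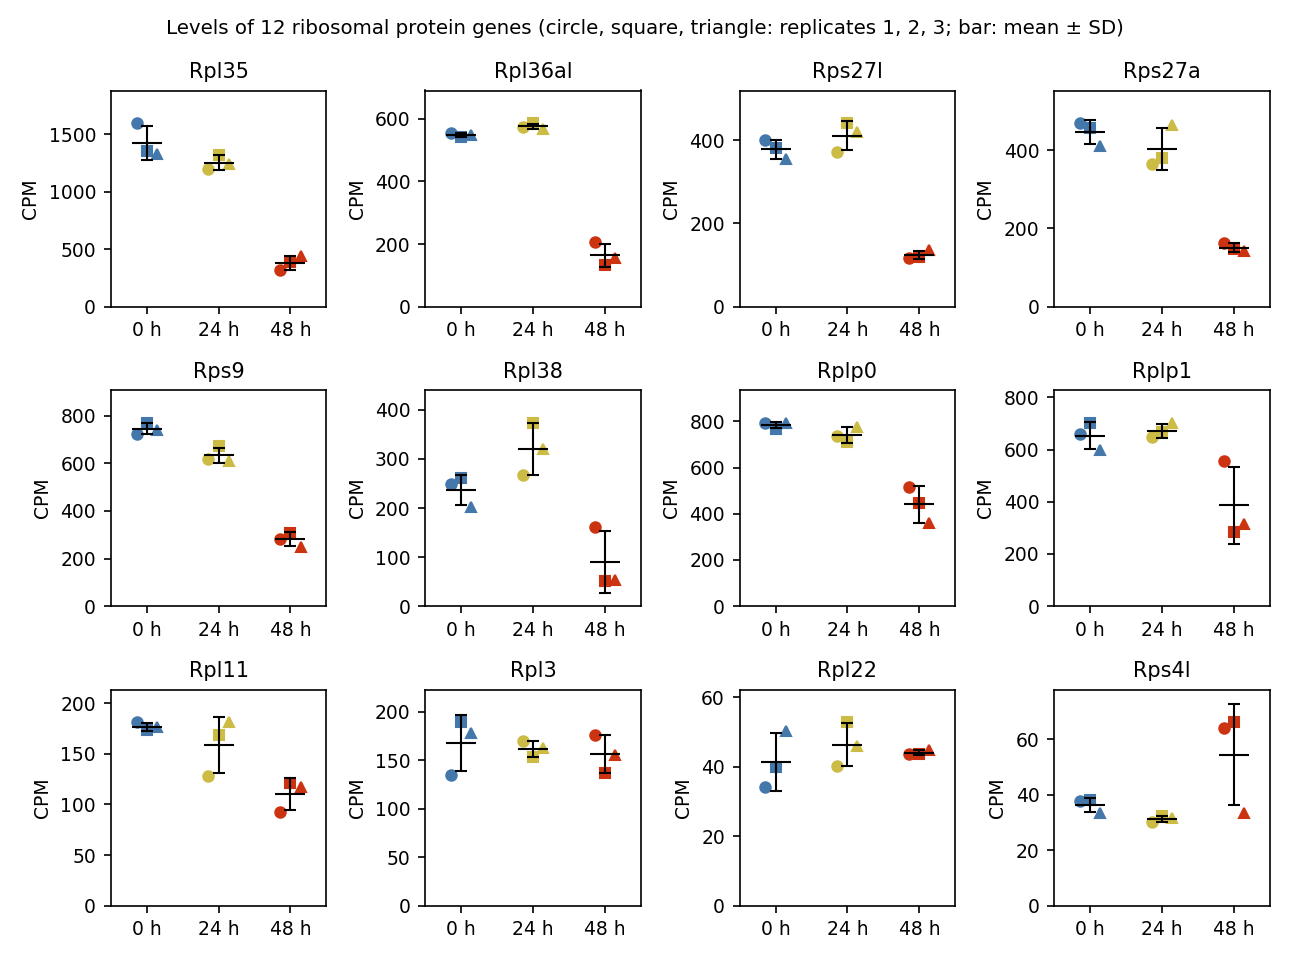
CPM of 12 ribosomal protein genes in the 3 libraries of each time (symbols mark replicates 1, 2 and 3) with mean and SD. Rpl35, Rpl36al, Rps27l, Rps27a and Rps9 are separated between 48 h and the earlier times, Rpl38 and Rplp1 have a high 48 h replicate 1, and Rpl3 and Rpl22 overlap at all times.

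The P stalk, formed by Rplp0, Rplp1 and Rplp2 on the large subunit, recruits the elongation factors that drive translation. Rplp0 had 793, 768 and 792 CPM at 0 h, 736, 710 and 776 CPM at 24 h and 516, 447 and 359 CPM at 48 h, and fell at 48 h against 0 h (-0.83 ± 0.19, edgeR, adjusted p = 0.0106). Rplp2 had 358, 394 and 363 CPM at 0 h, 386, 397 and 374 CPM at 24 h and 244, 134 and 158 CPM at 48 h (-1.05 ± 0.22, edgeR, adjusted p = 0.0084). Rplp1 had 661, 702 and 598 CPM at 0 h, 648, 667 and 702 CPM at 24 h and 557, 286 and 316 CPM at 48 h. In all 3 genes the 48 h libraries lay below those of 0 h, but Rplp1 did not pass the threshold against 0 h (-0.76 ± 0.25, edgeR, adjusted p = 0.0591), with 48 h replicate 1 close to the earlier range.

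Rpl5 and Rpl11 form a particle with 5S ribosomal RNA and, outside the ribosome, bind the p53 inhibitor Mdm2. Rpl11 averaged 177 ± 3.88 CPM at 0 h, 159 ± 27.9 CPM at 24 h and 110 ± 15.6 CPM at 48 h (SD, n = 3) and fell at 48 h against 0 h (-0.68 ± 0.19, edgeR, adjusted p = 0.0289), a call lost in 9 of 23 alternatives. Rpl5 averaged 157 ± 10.8 CPM at 0 h, 157 ± 26.5 CPM at 24 h and 115 ± 10.3 CPM at 48 h and did not pass the threshold (-0.45 ± 0.18, edgeR, adjusted p = 0.113), although its 48 h libraries (103, 121 and 121 CPM) lay below all earlier ones.

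A list of 7 members with a role outside the ribosome, which does not hold Rpl5 and Rpl11, was also followed. Of these 7, 6 fell at 48 h against 0 h, beside 52 of all 83 members tested. Rps19, which is mutated in Diamond-Blackfan anaemia, had 1027, 837 and 847 CPM at 0 h, 747, 675 and 786 CPM at 24 h and 341, 327 and 365 CPM at 48 h (-1.39 ± 0.18, edgeR, adjusted p = 0.000389). Rpsa, also known as the laminin receptor, had 352, 414 and 445 CPM at 0 h, 290, 386 and 293 CPM at 24 h and 230, 157 and 194 CPM at 48 h (-1.06 ± 0.21, edgeR, adjusted p = 0.00553). Rpl13a, which in human myeloid cells leaves the ribosome after interferon-γ treatment to silence inflammatory messenger RNAs, had 440, 466 and 521 CPM at 0 h, 418, 483 and 497 CPM at 24 h and 255, 292 and 292 CPM at 48 h (-0.77 ± 0.17, edgeR, adjusted p = 0.0106). These genes did not overlap between 48 h and the earlier times. Rps3, which also acts in DNA repair, and Rps6, the substrate of S6 kinase, fell less (-0.65 ± 0.18 and -0.53 ± 0.17, edgeR, adjusted p = 0.0315 and 0.0491), and their calls were lost in 12 and 16 of 23 alternatives. The remaining genes of this list are Rps27a, given above, and Rpl22, which binds RNA and is needed for the development of αβ T cells. Rpl22 had 34.0, 39.8 and 50.3 CPM at 0 h, 40.3, 52.7 and 45.9 CPM at 24 h and 43.7, 43.6 and 44.8 CPM at 48 h, and its libraries overlapped at all times.

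Several members stood apart from the common pattern. The correlation of each member with the summed level of all members over the 9 libraries, for members of at least 10 CPM on average, was highest for Rpl36al (Pearson's r = 0.99 of log2 CPM) and Rpl23a (r = 0.99), and lowest for Rpl22 (r = -0.08) and Rps4l (r = -0.66). These are descriptions over libraries that fall into times, and the members are part of the sum. Rps4l, annotated as a pseudogene, averaged 36.4 ± 2.54 CPM at 0 h (SD, n = 3) and had 30.0, 32.3 and 31.5 CPM at 24 h and 64.0, 66.0 and 33.3 CPM at 48 h. Its 48 h replicate 3 stayed at the earlier level while the other 48 h libraries were higher. It was the only member called higher in any comparison, at 48 h against 24 h (0.80 ± 0.24, edgeR, adjusted p = 0.0425), and the call was lost in 12 of 23 alternatives. Rpl3, a protein of the peptidyl transferase region, averaged 167 ± 28.9 CPM at 0 h, 162 ± 8.17 CPM at 24 h and 156 ± 19.5 CPM at 48 h, with a log2 fold change of -0.10 ± 0.18 at 48 h against 0 h (edgeR, adjusted p = 0.779). Rpl3 was singled out here after its values were seen.

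Tissue-restricted paralogs were scarce. Rpl3l, known from heart and skeletal muscle, had 5.60, 5.57 and 5.57 CPM at 0 h, 4.86, 1.81 and 4.39 CPM at 24 h and 1.07, 1.98 and 3.60 CPM at 48 h and did not pass the threshold at 48 h against 0 h (-1.33 ± 0.49, edgeR, adjusted p = 0.0888). Rpl39l, a paralog of testis, lay between 0 and 1.55 CPM in all libraries, with the 48 h libraries at 1.53, 1.55 and 0 CPM. Of the 5 tested paralogs on the list, Rpl36al and Rps27l fell at 48 h.

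At 24 h against 0 h, no member passed the threshold, with 0 at an unadjusted p under 0.05 and 0 called by DESeq2 or by limma-voom. Over all genes 0.0495% were called higher and 0.0297% lower, which is 10 and 6 genes with TMM and 5 each with library totals. DESeq2 called 267 genes higher and 107 lower, and limma-voom 8 and 2. Only Rpl3l had a log2 fold change of 0.5 or more in size (-0.60 ± 0.49). Rpl32, Rps19 and Rpsa were among the members with the smallest p. Rpl32, a 60S protein, averaged 574 ± 24.6 CPM at 24 h and 722 ± 82.7 CPM at 0 h (-0.33 ± 0.18, edgeR, adjusted p = 0.864). In 11 of 83 members all 24 h libraries were below all 0 h libraries, as they were for 8.92% of all genes.

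At 48 h against 24 h, 52 of 83 members fell and 1 rose, with a median log2 fold change of -0.75, against 0.05 over all genes tested. Over all genes 9.6% were called lower and 10.2% higher. In 69 of the 83 members all 48 h libraries were below all 24 h libraries, as they were for 18.4% of all genes. Among the largest falls were those of Rpl38 (-1.84 ± 0.40, edgeR, adjusted p = 0.009), Rpl36al (-1.81 ± 0.20, adjusted p = 0.000158), Rps27l (-1.72 ± 0.17, adjusted p = 9.04e-05), Rpl35 (-1.71 ± 0.20, adjusted p = 0.00022) and Rps27a (-1.41 ± 0.18, adjusted p = 0.000344). All 3 stalk genes fell in this comparison, Rplp1 included (-0.80 ± 0.25, edgeR, adjusted p = 0.0471), but the calls of Rplp1 and Rplp0 were lost in 15 and 8 of 23 alternatives, whereas Rpl5 and Rpl11 did not pass the threshold (adjusted p = 0.108 and 0.0743). The same 48 h libraries enter this comparison and that with 0 h. Leaving out 24 h replicate 1, 2 or 3 gave 32, 28 and 26 members called lower, and leaving out 48 h replicate 2 or 3 gave 27 and 29. With library totals in place of TMM, 17 members were called lower, and 71 of 83 had a lower mean at 48 h than at 24 h. Over all genes, 3709 were then called higher and 970 lower, against 2070 higher and 1940 lower with TMM.

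Ribosomal proteins whose symbols the rule did not reach were also mostly lower at 48 h. Of 7 such genes, 4 fell and 0 rose at 48 h against 0 h. Fau, which encodes the 40S protein S30 fused to a ubiquitin-like domain, had 995, 1044 and 1070 CPM at 0 h, 1161, 1092 and 1082 CPM at 24 h and 375, 269 and 290 CPM at 48 h (-1.74 ± 0.19, edgeR, adjusted p = 0.00015). The paralogs Rpl22l1 (-1.13 ± 0.21, edgeR, adjusted p = 0.00347) and Rps27rt (-0.92 ± 0.25, adjusted p = 0.0279) fell as well. Rps3a1, a 40S protein (-0.55 ± 0.23, edgeR, adjusted p = 0.131), Rpl7l1, a homologue of Rpl7 (-0.54 ± 0.21, adjusted p = 0.0962), and Rack1, a scaffold on the 40S head (-0.33 ± 0.24, adjusted p = 0.406), did not pass. Rpl22l1 thus fell where its paralog Rpl22 did not pass the threshold, and the difference between them was not tested.

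Part of the genes listed for translation elongation and initiation fell as well. Of 10 genes on the elongation list, 4 fell and 0 rose at 48 h against 0 h, with a median of -0.36. The 4 were Eif5a, Eef1e1, Nars and Tpt1, and the list is thus wider than the elongation factors. For this and the following lists, the shares over all genes tested were 8.95% lower and 9.86% higher at 48 h against 0 h. Eif5a, which relieves stalled ribosomes, averaged 436 ± 70.2 CPM at 48 h and 885 ± 78.9 CPM at 0 h (-1.02 ± 0.20, edgeR, adjusted p = 0.00509), and Eef1e1 (-0.89 ± 0.21, adjusted p = 0.0141) and Nars, the asparaginyl-tRNA synthetase (-0.88 ± 0.26, adjusted p = 0.036), fell as well. Eef1a1, the main carrier of aminoacyl-tRNA, averaged 776 ± 35.8 CPM at 48 h and 1004 ± 44.5 CPM at 0 h and did not pass (-0.37 ± 0.17, edgeR, adjusted p = 0.154). Of 36 initiation genes, 7 fell and 0 rose, with a median of -0.37. With library totals, 1 gene of the elongation list was lower and 1 higher, and 2 initiation genes were lower and 1 higher. Among them the RNA helicase Eif4a1 averaged 75.9 ± 17.1 CPM at 48 h and 179 ± 35.9 CPM at 0 h (-1.24 ± 0.23, edgeR, adjusted p = 0.0035), and the cap-binding protein Eif4e averaged 23.4 ± 5.93 CPM at 48 h and 80.6 ± 40.5 CPM at 0 h (-1.78 ± 0.37, edgeR, adjusted p = 0.00728). Eif6, which keeps free 60S subunits from joining, averaged 124 ± 37.1 CPM at 48 h and 245 ± 21.6 CPM at 0 h (-0.98 ± 0.22, edgeR, adjusted p = 0.0104).

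Genes that build ribosomes were tested next. Of 66 assembly factors, 12 fell and 1 rose at 48 h against 0 h, with a median of -0.43, and 24 fell and 0 rose against 24 h. With library totals in place of TMM, 6 of the assembly factors were lower and 4 higher than at 0 h. Heatr1, a factor of early small-subunit processing, averaged 1.51 ± 0.216 CPM at 48 h and 8.79 ± 0.972 CPM at 0 h (-2.54 ± 0.27, edgeR, adjusted p = 0.000119). Nhp2, a core protein of H/ACA particles that guide pseudouridylation, averaged 59.2 ± 4.72 CPM at 48 h and 170 ± 40.1 CPM at 0 h (-1.52 ± 0.22, edgeR, adjusted p = 0.000743). Pno1, needed for 40S maturation, fell too (-1.26 ± 0.20, edgeR, adjusted p = 0.00125). Of 17 tested genes for RNA polymerase I and its factors, 3 fell and 0 rose, against 2 lower and 1 higher with library totals. They were Polr2l (-1.62 ± 0.25, edgeR, adjusted p = 0.0014) and Polr2f (-1.12 ± 0.17, adjusted p = 0.00128), which are shared with RNA polymerases II and III, and Tcof1, which encodes the nucleolar protein treacle (-1.01 ± 0.25, adjusted p = 0.0171).

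The mitochondrial ribosome, which translates the messages of mitochondrial DNA, takes its proteins from Mrpl and Mrps genes in the nucleus. Of 82 tested genes, 24 fell and 0 rose at 48 h against 0 h, with a median of -0.42, and with library totals 9 were lower and 1 higher. The falls with the smallest p were those of Mrpl52 (65.4 ± 14.9 CPM at 48 h and 197 ± 3.95 CPM at 0 h, -1.59 ± 0.20, edgeR, adjusted p = 0.000308), Mrpl54 (-1.57 ± 0.20, adjusted p = 0.000324) and Mrps15 (-1.18 ± 0.15, adjusted p = 0.000442). By contrast, 11 of the 13 proteins that mitochondrial DNA itself encodes were higher at 48 h, with a median of 1.71. Among them mt-Nd4, a subunit of complex I, averaged 5576 ± 3084 CPM at 48 h and 1218 ± 192 CPM at 0 h (2.19 ± 0.38, edgeR, adjusted p = 0.00259), and mt-Nd2 and mt-Cytb rose as well (adjusted p = 0.00303 and 0.00313).

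Regulators were mixed. Of 21 genes that regulate ribosomal protein translation and growth, 3 rose and 1 fell at 48 h against 0 h, with a median of 0.00, and with library totals 6 were higher and 0 lower. Mxd4, which opposes Myc at its target genes, averaged 80.8 ± 10.9 CPM at 48 h and 21.1 ± 2.91 CPM at 0 h (1.94 ± 0.21, edgeR, adjusted p = 0.00013), and Rps6kb2, a kinase of Rps6, rose too (1.12 ± 0.22, adjusted p = 0.00583). Eif4ebp1, which blocks the cap-binding protein until mTORC1 phosphorylates it, averaged 128 ± 11.2 CPM at 48 h and 262 ± 41.3 CPM at 0 h (-1.04 ± 0.20, edgeR, adjusted p = 0.00516). Of 14 small nucleolar RNA host genes, whose transcripts often begin with a pyrimidine tract as well, 1 rose and 1 fell at 48 h against 0 h. These counts too were near the shares over all genes. With library totals 3 were higher and 0 lower. Snhg20 rose (1.08 ± 0.25, edgeR, adjusted p = 0.0118) and Snhg15 fell (-1.16 ± 0.25, adjusted p = 0.00854). Gas5, the host gene known to gather when translation slows in resting cells, had 59.7, 47.5 and 61.1 CPM at 48 h, against 40.8, 37.4 and 35.9 CPM at 0 h and 29.2, 37.3 and 37.7 CPM at 24 h. It was called higher against 24 h (0.69 ± 0.18, edgeR, adjusted p = 0.0221) and missed the threshold against 0 h (adjusted p = 0.0535).

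Targets of p53, the pathway that free Rpl5 and Rpl11 can engage through Mdm2, were mixed. Of 16 genes, 4 fell and 2 rose at 48 h against 0 h, and with library totals 1 was lower and 4 were higher. Cdkn1a, the cell cycle inhibitor p21, had 814, 621 and 624 CPM at 0 h, 1993, 2845 and 1797 CPM at 24 h and 111, 116 and 127 CPM at 48 h. With edgeR and TMM it was the only gene of these pathway lists called at 24 h against 0 h (1.69 ± 0.23, edgeR, adjusted p = 0.0395). That call was lost in 9 of 23 alternatives, among them library totals (adjusted p = 0.0727), the replicate block (adjusted p = 0.083) and each removal of a 0 h or 24 h library (adjusted p of 0.0582 to 0.248), while its log2 fold change stayed between 1.47 and 1.84, and DESeq2 called 4 genes of the lists. At 48 h Cdkn1a was lower than at 0 h (-2.54 ± 0.24, edgeR, adjusted p = 4.95e-05). Phlda3 (1.07 ± 0.23, edgeR, adjusted p = 0.00948) and Sesn1 (1.49 ± 0.32, adjusted p = 0.00861) rose at 48 h against 0 h.

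**Figure D5:**
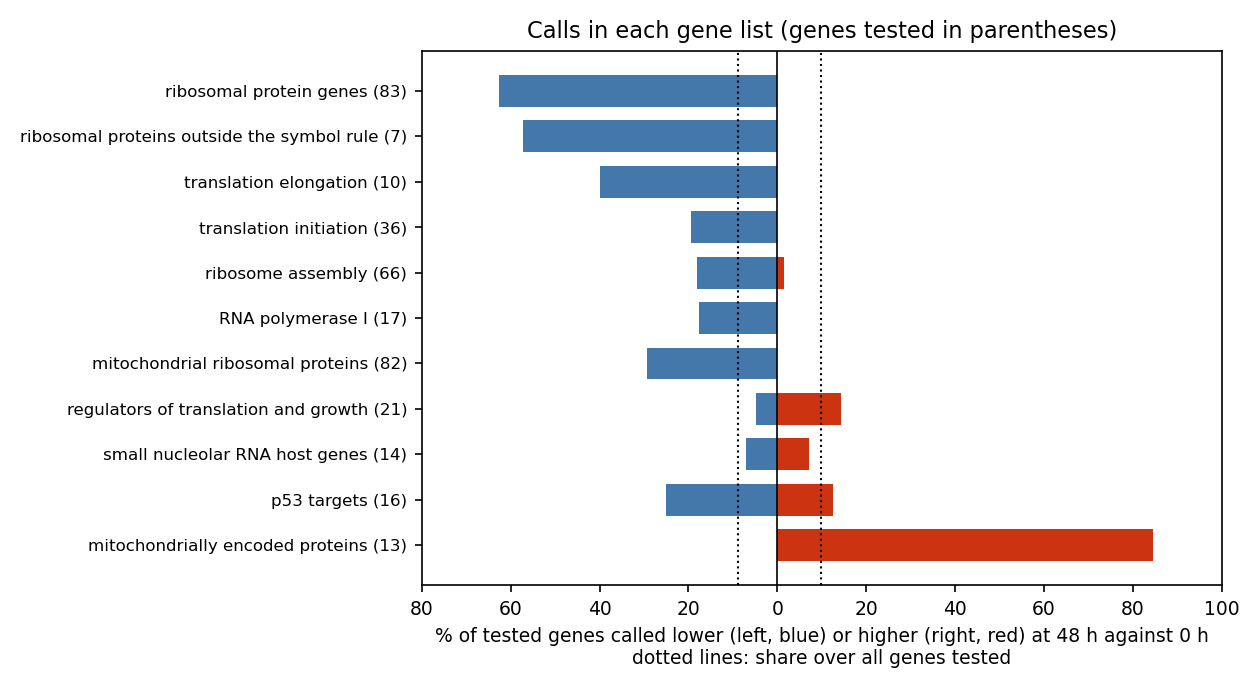
Share of the tested genes of the members and of 10 pathway lists called lower (blue, left) or higher (red, right) at 48 h against 0 h, with the shares over all 20204 genes as dotted lines (8.95% lower and 9.86% higher). Of the ribosomal protein genes 52 of 83 were lower, and of the mitochondrially encoded proteins 11 of 13 were higher.

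Members were also grouped by their start site, as a description. In 25 tested members a pyrimidine run had its first base within 5 bases of the annotated start. Their median log2 fold change was -0.70 at 48 h against 0 h, with 16 called lower. The other 36 tested members had a median of -0.87, with 26 called lower. Rpl35 and Rps9, whose runs begin earlier and reach this interval, are among these 36. Counting such runs too, 34 tested members had a median of -0.71, with 22 called lower. The remaining 27 had a median of -0.91, with 20 called lower. Reads of 11 members may be shared with processed pseudogenes, which held at least 20% of the counts of gene and pseudogenes together (Rpl7a, Rpl9, Rpl10, Rpl14, Rpl17, Rpl21, Rpl23a, Rpl36a, Rpl38, Rps10 and Rps12). Of these 11, 8 fell at 48 h against 0 h, and of the other 72 tested members 44 fell. With the pseudogene counts added to each parent gene, an alternative chosen after the data were seen, 54 members were called lower and 0 higher.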

How the data were processed

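Macrophages sorted from mouse liver gave 9 libraries (3 at each of 0, 24 and 48 h after PHx). Libraries of purified mRNA were made with dUTP strand marking, and no source used here states whether counting used the strand. The authors deposited whole-number counts per Ensembl gene, not scaled to depth. Tools listed in the submitters' processing notes, without roles, were featureCounts 1.5.0-p3, CASAVA 1.8 and HISAT2 2.0.5 (build: not given in the sources used here). The deposited values are called estimated counts here, because multiples of 4 were in excess (40.9% to 47.6% of values from 4 to 40). A unit is therefore not 1 fragment, totals do not give the counting error, and error was taken from the spread between libraries. All columns of the table were used. Of 56691 gene IDs, 52073 could be given a symbol.

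Genes with low counts were removed by filterByExpr (minimum count 10), and all 9 libraries were fitted together by time alone (edgeR 4.0.16, TMM, glmQLFit and glmQLFTest, R 4.3.3, limma 3.58.1, DESeq2 1.42.0), with Benjamini-Hochberg adjustment over all genes and a threshold of 0.05. No library was a copy of another of the same time (chi-square per gene of at least 146). Libraries of different times were not compared in this way. Genes named were every member of the lists of stalk proteins, 5S particle proteins, paralogs and members with other roles, the 6 largest rises and falls among called members per comparison, the 4 smallest p where fewer than 6 were called, ribosomal proteins outside the symbol rule, up to 3 called genes of each further list or the 2 with most counts, and the 2 members most and least like the sum of all members. Genes of the further lists are named for 48 h against 0 h, with few exceptions for 24 h. Some genes that this rule selects are not reported here. Members, lists and tests were chosen with earlier results of these data known. Alternatives were RLE and upper-quartile factors, library totals, TMM without the members, the 20 most-counted genes or mitochondrially encoded genes left out, no filter, at least 10 counts in every library, DESeq2, limma-voom, only the times compared, a replicate block, counts divided by 4 and each library left out. After the data were seen, pseudogene counts added to the parent gene and only protein coding members were tried too.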

Additional observations from a re-analysis of the deposited data

How the results depend on the processing

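The lower level of the ribosomal protein genes at 48 h kept its direction under every alternative tried. The median log2 fold change of the members was -0.36 against 0 h and -0.33 against 24 h with library totals, and with single libraries left out it ranged from -0.92 to -0.64 and from -0.88 to -0.62. The number of members called lower against 0 h was 18 with library totals and 28 to 63 with a library left out. Against 24 h it was 17 with library totals, 32 with only the libraries of the times compared and 26 to 61 with a library left out. The number called higher against 0 h was 1 with library totals and 0 to 1 with a library left out. Against 24 h it was 0 with upper-quartile factors, limma-voom, only the libraries compared, the replicate block or only protein coding members, and 0 to 1 with a library left out. The cause of these shifts was not tested, apart from the fewer samples or genes that an alternative holds by construction.

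Libraries with the same replicate number showed no sign of pairing (correlations of same-numbered deviations from -0.015 to 0.07). These values cannot establish that the libraries were unpaired. With the replicate block, 44 members were called lower against 0 h and 44 against 24 h. The largest count of the members called lower, 68 against 0 h, came with upper-quartile factors, which put 41.5% of all calls on the higher side, against 52.4% with TMM and 77.7% with library totals. Of the genes in the other pathway lists, 1 was called higher at 24 h. That number was 0 with library totals or the replicate block, 4 with DESeq2, 2 with only the libraries compared and 0 to 2 with a library left out. At 48 h, library totals gave 33 called higher and 23 lower against 0 h, and 36 higher and 29 lower against 24 h, compared with 18, 60, 22 and 77. Against 24 h, 12 were called higher without mitochondrially encoded genes and 50 lower with only the libraries compared. With a library left out the ranges were 12 to 21 higher and 30 to 61 lower against 0 h, and 12 to 23 higher and 42 to 76 lower against 24 h. The share of counts of the members averaged 2.56% at 0 h, 2.40% at 24 h and 1.78% at 48 h. It was 2.66% at 0 h without mitochondrially encoded genes, and 3.66%, 3.25% and 2.52% at 0, 24 and 48 h without the 20 most-counted genes.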
